A study of Scophthalmus maximus with 8 samples.

Results

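Reproducible open chromatin peaks of turbot (Scophthalmus maximus) at the climax of metamorphosis, 23dph (days post hatching), were compared with those of the pre-metamorphic larva, 15dph. The comparison takes in every peak of both stages, 47853 at 23dph and 57611 at 15dph, which makes 105464 of the 246426 peaks in the 4 stage lists of the series. Each list joins 2 biological replicates of its stage. At both stages the body was used without its hind part beyond the cloaca, and animals were collected until a set number of cells was reached, so each library mixes animals and all cell types of the sampled body. The cells were freed with collagenase, and the incubation was longer at 23dph than at 15dph, so stage and incubation time cannot be told apart. The 23dph list carries another day number in its name, and the labels attach it to both 23dph samples. A group of fewer cells with an open site and a lower opening of that site in all cells cannot be told apart in whole-body samples.

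ATAC-seq maps open chromatin with the Tn5 transposase, which cuts DNA where nucleosomes do not cover it. Such sites are mostly promoters and enhancers, the stretches where transcription factors bind to switch genes on or off. Thyroid hormone acts on its nuclear receptors to drive metamorphosis in flatfish, and at climax the larva leaves the open water for the sea floor and comes to lie on one side with both eyes facing up. The comparison of 23dph with 15dph asks which of these sites gain or lose a peak over that transition, and whether the sites open at both stages keep their extent and centre.

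A peak is a stretch of DNA with more Tn5 cuts than its surroundings, and its summit is the base with the highest signal. Peaks of the 2 stages were linked where they overlapped by at least 1 bp. A 23dph peak with no linked 15dph peak is called gained, a 15dph peak with no linked 23dph peak is called lost, and the others are called kept. These words describe the lists: a missing peak means that none passed the authors' reproducibility limit, the Irreproducible Discovery Rate (IDR, an estimate of how large a part of the equally or more highly ranked peaks does not repeat between replicates). Since there is 1 list for each stage and no value for each replicate, no test between stages was possible. Intervals are 95% Wilson intervals, which cover counting error only.

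Fewer peaks were gained than were lost. Of the 47853 peaks at 23dph, 7570 were gained (15.8%, interval 15.5 to 16.1%), and of the 57611 peaks at 15dph, 18029 were lost (31.3%, interval 30.9 to 31.7%). These shares, 15.8% and 31.3%, are the background against which every share below is read. The kept peaks numbered 40283 at 23dph and 39582 at 15dph. The list at 23dph was also shorter, at 0.831 times the number of 15dph peaks. When the 15dph list was cut to its 47853 strongest peaks, the length of the 23dph list, 20.3% of 23dph peaks were gained and 22.1% of 15dph peaks were lost, and lists of equal length can differ in these shares only through peaks that overlap several others. That both shares came close was thus set by the cut itself, and why the lists differ in length was not tested. The depth of sequencing behind each list was not analysed here, and its part in the list lengths and peak widths was not tested.

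Gained and lost peaks made up a smaller share of the covered base pairs than of the peaks. Gained peaks covered 1.88 Mb, 14.2% of the 13.2 Mb in 23dph peaks, and lost peaks covered 4.91 Mb, 28.3% of the 17.4 Mb in 15dph peaks. Kept peaks shared 10.7 Mb between the stages, which was 93.8% of their extent at 23dph and 85.6% of their extent at 15dph. Kept sites thus held 0.701 Mb covered only at 23dph, against 1.79 Mb covered only at 15dph. These stretches are not part of the gained and lost shares above, so those shares are not the whole turnover in base pairs.

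Most gained and lost peaks were weak peaks of their own list. Strength was ranked within each list by the −log10 of the peak p-value as the authors' peak caller gave it, so that 10 equal parts, the strength deciles, run from the strongest peaks (decile 1) to the weakest (decile 10). At 23dph, 1 of 4786 peaks in decile 1 was gained (0.0209%), 223 in decile 5 (4.66%) and 2471 in decile 10 (51.6%). At 15dph, none of the 5762 peaks in decile 1 was lost, a count of 0 that allows a share of up to 0.0521% if 3 counts are taken as its limit (the Wilson interval reaches 0.0666%), while 1046 peaks in decile 5 were lost (18.2%) and 4577 in decile 10 (79.4%). The strongest sites of both lists were therefore shared almost without exception, and from decile 2 on the lost share lay above the gained share at every step.

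**Figure D1:**
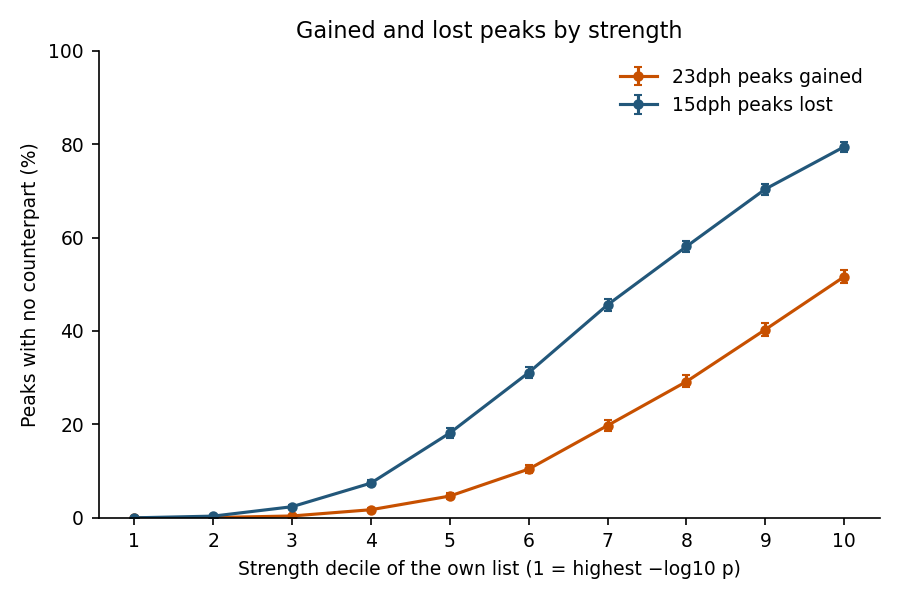
Share of 23dph peaks gained (orange) and of 15dph peaks lost (blue), in %, by strength decile of the own list, with 95% Wilson intervals as bars. Both shares climb from near 0 in decile 1 to 51.6% gained and 79.4% lost in decile 10.

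Only 329 gained peaks (4.35% of the 7570) and 1632 lost peaks (9.05% of the 18029) stood in the stronger 50% of their lists. In the weaker 50%, 30.3% of 23dph peaks were gained and 56.9% of 15dph peaks were lost. Stricter links put more strong peaks into these classes: where the overlap had to reach 50% of each peak, 16.1% of gained and 14.4% of lost peaks stood in the stronger 50%, and with summits within 100 bp, 10.1% and 11.4%. The median −log10 p was 10.7 for gained and 18.8 for kept peaks at 23dph, and 11.8 for lost and 23.6 for kept peaks at 15dph. The fold enrichment over the local background, the height of a peak, had the same order, with a median of 3.71 for gained and 4.92 for kept peaks and of 3.52 for lost and 4.97 for kept peaks. The reproducibility values went the same way. A global IDR of at most 0.01 was reached by 14.8% of gained and 74.4% of kept 23dph peaks, and by 28.7% of lost and 84.7% of kept 15dph peaks. Most gained and lost peaks therefore sat in the range closest to the limit at which a peak enters a list at all, and how many would be found again in other replicates was not tested.

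The 3 strongest gained peaks included 1 that stood far apart from the rest. It lay on chromosome 3 from 72136 to 72396 (261 bp), ranked 103 of 47853 (fold enrichment 11.9, −log10 p 70.8), and its nearest 15dph peak was 17598 bp away. It was the one gained peak in decile 1, and the site carried a peak at 3dpf (days post fertilization) and at 37dph, the earliest and the latest stage of the series. The next in strength lay on chromosome 15 from 37789 to 38102 (rank 5199, fold enrichment 7.89, also at 3dpf) and on chromosome 12 from 26795508 to 26795726 (rank 7904, fold enrichment 7.14, also at 3dpf and 37dph). A −log10 p of 37.1 and of 31.5 at these sites left a wide step below the first. The peaks on chromosomes 3 and 15 both lay within 100 kb of the first base of their chromosome.

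The 3 strongest lost peaks were closer to each other. The strongest covered 647 bp on chromosome 9 from 24223411 to 24224057 (rank 7397 of 57611, fold enrichment 7.08, −log10 p 39.4), and the nearest 23dph peak was 13886 bp away. The others lay on chromosome 4 from 1291135 to 1291333 (rank 8151) and on chromosome 1 from 23788475 to 23788712 (rank 8499), and here a 23dph peak was only 137 and 131 bp away. All 3 sites carried a peak at 3dpf and at 37dph. So at each of the 3 the call at 15dph was not the only one in the series, and for the last pair the lost label turned on a short gap between neighbouring peaks.

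Gained peaks were narrower than kept peaks over the whole list, and so were lost peaks. The median width was 220 bp (quartiles 176 and 297) for gained and 241 bp (193 and 333) for kept 23dph peaks, and 241 bp (182 and 333) for lost and 262 bp (204 and 379) for kept 15dph peaks. The difference of the medians was −21 bp at both stages. Within a list, width and strength go together, so the same comparison was made inside each strength decile, and there the order turned round.

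Within strength deciles, lost peaks were wider than kept peaks. This held in 9 of the 9 deciles that held lost peaks, by 5 to 34.5 bp with a median of 21 bp. In decile 4, for example, the median was 268.5 bp for 428 lost peaks and 234 bp for kept peaks. Gained peaks were wider than kept peaks in 7 of 10 deciles, with a median difference of 7.75 bp, narrower in 2 and equal in 1. The deciles with the extreme differences, −53 and 54 bp, held 1 and 3 gained peaks. Of the 7 deciles with at least 20 gained peaks, 6 had the wider median in gained peaks and 1 had equal medians. Within a strength decile, lost peaks were thus spread over more bases than kept ones, and gained peaks less clearly so. Strength still varied inside each decile.

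**Figure D2:**
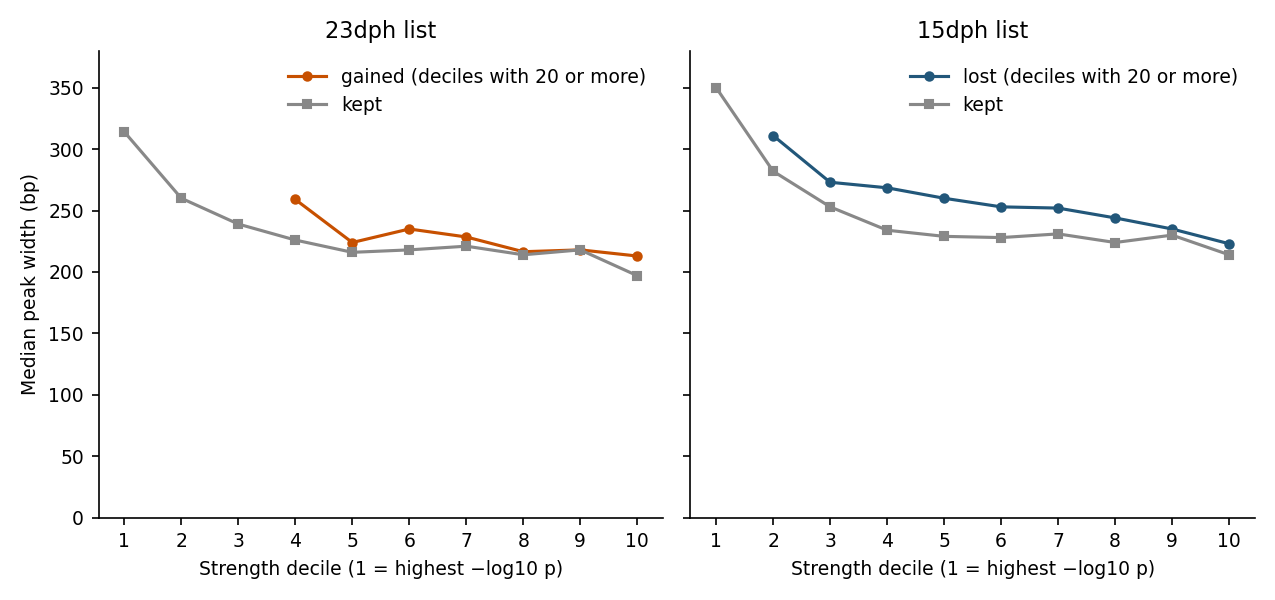
Median peak width (bp) by strength decile, for gained (orange) and kept (grey) peaks of the 23dph list on the left and lost (blue) and kept (grey) peaks of the 15dph list on the right; deciles with fewer than 20 gained or lost peaks show kept peaks only. The lost line lies above the kept line in all 9 deciles drawn.

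By width alone, turnover was highest among the narrowest peaks and lowest among the widest. Among peaks of 100 to 149 bp, 35.0% were gained at 23dph and 61.5% were lost at 15dph, and among peaks of at least 700 bp, 1.99% were gained (12 of 602) and 9.52% were lost (141 of 1481). Narrow peaks were also weak and wide peaks strong, so strength was set beside width. For any set of peaks, the strength deciles of its members give a share that the set would have if only strength mattered, here called the decile share. For the narrowest peaks it was 39.0% gained and 67.5% lost, and for the widest it was 5.67% gained and 12.6% lost. The gained and lost shares of the widest peaks thus lay below their decile shares, and so did those of the narrowest. A wide peak also meets a peak of the other list more easily, which by itself lowers its share.

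The widest gained peak and the widest lost peak both lay on the mitochondrial sequence MT. The gained one ran from 13288 to 16772 (3485 bp, fold enrichment 1.92) and the lost one from 41 to 3555 (3515 bp, fold enrichment 1.35). The mitochondrial genome is circular, so its ends as listed are neighbours, and at 37dph the list held a peak at both ends. On the numbered chromosomes the widest gained peaks lay on chromosome 2 from 1972425 to 1973310 (886 bp) and on chromosome 4 from 23549354 to 23550215 (862 bp). The widest lost peaks lay on chromosome 22 from 10646385 to 10647519 (1135 bp, rank 18042) and on chromosome 5 from 14983500 to 14984617 (1118 bp). Of these 4, the site on chromosome 4 carried a peak at neither 3dpf nor 37dph.

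Gained and lost peaks stood farther from other peaks of their own list than kept peaks did. The median distance from a summit to the nearest other summit of the list was 3680 bp for gained and 2179 bp for kept 23dph peaks, and 2611 bp for lost and 1837 bp for kept 15dph peaks. A neighbouring summit within 1 kb was present for 20.2% of gained and 34.0% of kept 23dph peaks, and for 28.9% of lost and 36.2% of kept 15dph peaks. No summit within 10 kb was present for 18.6% of gained and 11.4% of kept peaks, and for 13.5% of lost and 8.08% of kept peaks. Under this link rule isolation thus went with turnover at both stages. The difference of the medians to kept peaks, 1503.5 bp for gained and 775 bp for lost peaks, was 268 and 585 bp where the overlap had to reach 50% of each peak and 666 and 673.5 bp with summits within 100 bp.

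Part of this remained when set against the decile shares, most of all at the far end. Among peaks with the next summit of their list over 20 kb away, 29.0% were gained, against a decile share of 23.0%, and 54.4% were lost, against a decile share of 43.5%. At the near end, 10.3% of 23dph peaks with a summit within 500 bp were gained, below their decile share of 14.6%, while 28.3% of such 15dph peaks were lost, close to their decile share of 29.2%. For lost peaks the larger departures were thus those beyond 10 kb (39.8% against 35.5% at 10 to 20 kb). For gained peaks the observed share lay below the decile share in each range up to 2 kb and above it in each range beyond.

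**Figure D3:**
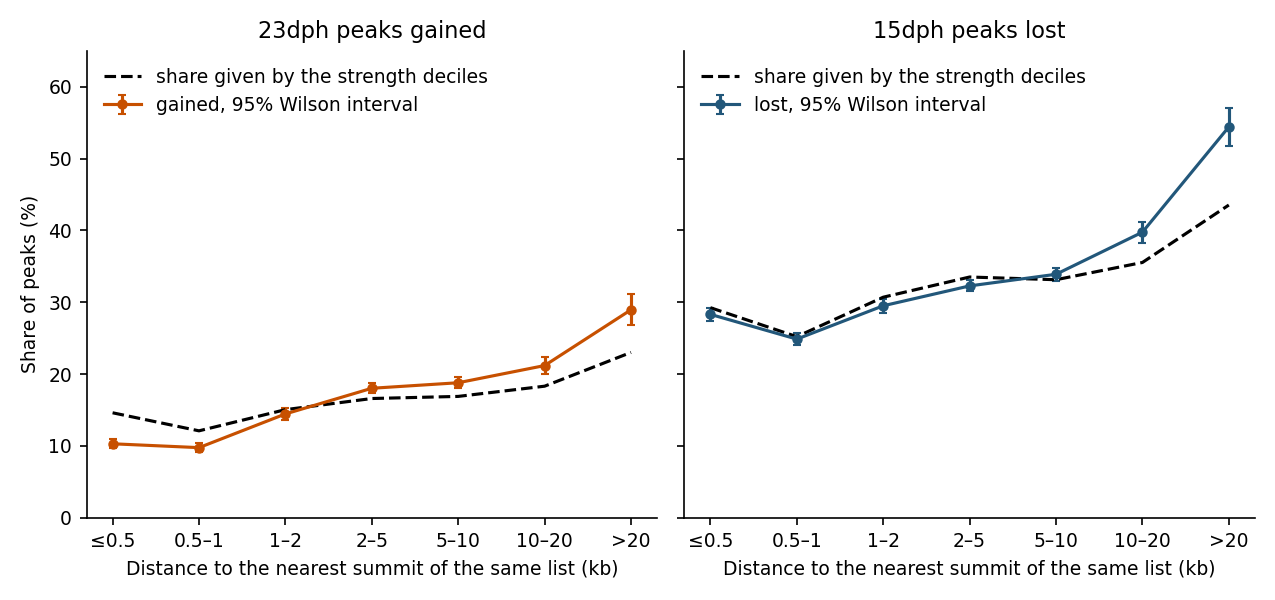
Share of 23dph peaks gained (left, orange) and of 15dph peaks lost (right, blue), in %, by distance to the nearest summit of the same list in kb, with 95% Wilson intervals; dashed lines give the share that the strength deciles of the same peaks would give. The observed shares beyond 20 kb, 29.0% and 54.4%, lie above the dashed lines at 23.0% and 43.5%.

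Most gained and lost peaks were not near misses of a peak in the other list. The median gap from the edge of a gained peak to the nearest 15dph peak was 2804 bp, and from a lost peak to the nearest 23dph peak 3326 bp. A gap of at most 250 bp was found for 858 gained peaks (11.3%) and 2116 lost peaks (11.7%). Near misses were somewhat more frequent among the stronger lost peaks, and for gained peaks the intervals overlapped. In the stronger 50% of the lists, a gap of at most 250 bp was found for 15.2% of gained (50 of 329) and 15.1% of lost peaks (247 of 1632), against 11.2% and 11.4% in the weaker 50%. At the other extreme, 32 gained peaks (0.423%) and 234 lost peaks (1.30%) had no peak of the other stage within 50 kb.

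Gained and lost peaks were found on all numbered chromosomes. Over the 22 numbered chromosomes the gained share ran between 13.5% on chromosome 19 (interval 12.1 to 15.0%) and 17.3% on chromosome 2 (15.7 to 18.9%), and the lost share between 26.3% on chromosome 19 (24.6 to 28.1%) and 34.7% on chromosome 21 (32.5 to 37.0%). For the gained share, 3 intervals lay below the share over all peaks and 0 above it. For the lost share, 5 lay below and 5 above. The interval of the lost share thus missed the overall share on 10 of the 22 chromosomes and that of the gained share on 3. On most of these chromosomes the decile share lay inside the interval of the observed share. The exceptions were the lost shares of chromosome 19 and of chromosome 3, where 34.2% were lost (interval 32.4 to 36.0%) against a decile share of 32.2%. Among shares whose interval held the overall share, the lost share of chromosome 1 and the gained share of chromosome 21 also missed their decile shares. On chromosome 1, 32.7% were lost (interval 31.1 to 34.3%) against a decile share of 30.9%. Neighbouring peaks are not independent, so these intervals can be too narrow. Among so many intervals some would also miss by counting error alone, so the chromosomes named here are a description.

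Chromosome 19 stood at the low end for both classes and also had the densest peaks, at 103 per Mb at 23dph and 119 per Mb at 15dph, where chromosome 13 had the sparsest, at 72.3 and 90.3 per Mb. Its number of peaks differed least between the stages, with 2166 at 23dph and 2491 at 15dph (ratio 0.870). Chromosome 21 differed most, with 1284 at 23dph and 1659 at 15dph (ratio 0.774). The strengths of the peaks on chromosome 19 gave a decile share of 28.9% lost, so its 26.3% differed from it by −2.62 points, the largest departure of a lost share among the 22 chromosomes. For chromosome 21 the decile share of 34.0% came close to the observed 34.7% lost. Its gained share of 14.5% (interval 12.7 to 16.5%) lay below its decile share of 16.8%. That difference of −2.29 points was the largest departure of a gained share among the 22 chromosomes. In 5 other choices of list length, peak limit or link rule, chromosome 19 had the lowest gained share in 2 and chromosome 2 the highest in 1, while chromosome 19 had the lowest lost share in 5 and chromosome 21 the highest in 2.

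**Figure D4:**
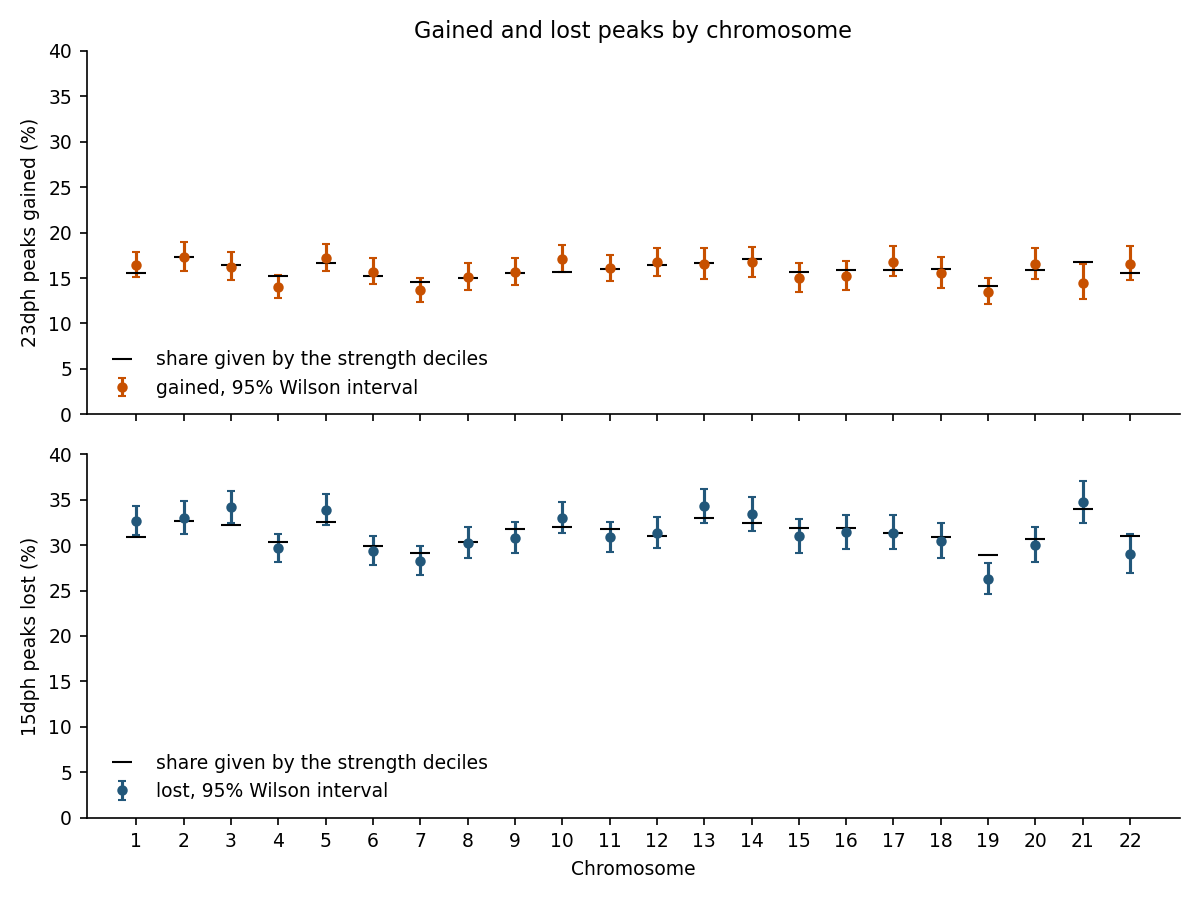
Share of 23dph peaks gained (upper panel) and of 15dph peaks lost (lower panel), in %, on the 22 numbered chromosomes, with 95% Wilson intervals; black dashes give the share that the strength deciles of the same peaks would give. Chromosome 19 is lowest in both panels, at 13.5% gained and 26.3% lost.

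Along the chromosomes, the gained share was somewhat higher among peaks next to a gained peak than among peaks next to a kept peak, and the same held for the lost share. The share gained was 20.1% among 23dph peaks whose next peak was gained and 15.0% among those whose next peak was kept, where the decile shares were 17.9% and 15.4%. The share lost was 36.8% among 15dph peaks whose next peak was lost and 28.8% among those whose next peak was kept, with decile shares of 35.0% and 29.6%. The observed shares differed by 5.10 and 7.93 points, and the decile shares differed less but in the same direction. With neighbours limited to 5 kb, the shares were 20.6% and 12.2% for gained and 34.2% and 26.2% for lost peaks. The decile shares there were 18.0% and 14.1% for gained and 33.6% and 28.1% for lost peaks. The lost share next to a lost peak was thus close to its decile share (interval 33.2 to 35.3%). Next to a kept peak the lost share lay below its decile share (interval 25.6 to 26.8%). Among the strongest 50% of each list the difference was down to 0.521 points for gained and 2.45 points for lost peaks.

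Most gained peaks stood singly, which a gained share of 15.8% over the list would by itself bring about. Of the 7570 gained peaks, 4851 (64.1%) had no gained peak next to them in the list, and 831 lay in 254 runs of 3 or more gained peaks in a row. Of the 18029 lost peaks, 7525 (41.7%) stood singly and 5828 lay in 1544 runs of 3 or more. Runs are longer where the share is higher, so the classes cannot be compared by run length alone. Whether peaks stood singly more or less often than these shares would give was not tested.

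The longest runs of both classes lay on chromosome 13, the chromosome with the sparsest peaks. The longest gained run held 7 peaks over 206 kb, from 19641377 to 19847067, with no 15dph peak in between. Their median width was 205 bp, the best of them ranked 29922 of 47853, and 3 of the 7 sites carried a peak at 3dpf and 0 at 37dph. The longest lost run held 15 peaks over 512 kb, from 20679359 to 21191523, with 2 gained 23dph peaks in between. Their median width was 252 bp, the best of them ranked 16415 of 57611, and 6 of the 15 sites carried a peak at 3dpf and 0 at 37dph. Both runs were thus made of peaks outside the strongest 20% of their lists. Over all peaks of the class, 24.4% of gained and 25.2% of lost peaks overlapped a 37dph peak, and 47.9% and 59.6% a 3dpf peak. In the deciles of the runs' median ranks, a 37dph peak was found for 16.7% of gained (decile 10) and 19.6% of lost peaks (decile 9). With 7 and 15 sites, picked as the longest runs, the count of 0 at 37dph is not read as a trait of the runs.

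Of the kept peaks, 37910 formed one-to-one pairs, in which each peak overlapped exactly 1 peak of the other list. They made up 79.2% of all 23dph peaks and 65.8% of all 15dph peaks. Most of these sites were slightly narrower at climax. The median width in pairs was 240 bp at 23dph and 258 bp at 15dph, and the median change of a pair was −12 bp (quartiles −41 and 8 bp) or −0.07 as a log2 ratio. At 23dph, 24678 peaks were narrower (65.1%, interval 64.6 to 65.6%), 12751 wider (33.6%) and 481 of the same width (1.27%).

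The change was a matter of small steps with a longer tail of narrowing. A narrowing by more than 100 bp was seen in 4064 pairs (10.7%) and a widening by more than 100 bp in 1053 (2.78%). The 23dph width was at most 50% of the 15dph width in 913 pairs (2.41%) and at least 200% of it in 161 (0.425%). Both edges took part equally. The start lay farther inward at 23dph in 59.3% of pairs and the end in 59.3%, with a median move of 5 bp for starts and −5 bp for ends. In 15161 pairs the 23dph peak lay within the 15dph peak, in 6359 pairs the 15dph peak lay within the 23dph peak, and in 16339 pairs (43.1%) both edges moved the same way.

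The centres of the sites stayed in place. The median shift of the summit was 0 bp (quartiles −9 and 9 bp), and its median size without sign was 9 bp. The distance between the summits was at most 10 bp in 54.4% of pairs, at most 25 bp in 74.6% and at most 100 bp in 96.7%, and both fell on the same base in 7.67%. Shifts to lower coordinates (46.5%) and to higher coordinates (45.8%) were about equal in number. Linking by overlap limits how far apart summits can lie, so these distances are a description of linked sites only.

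**Figure D5:**
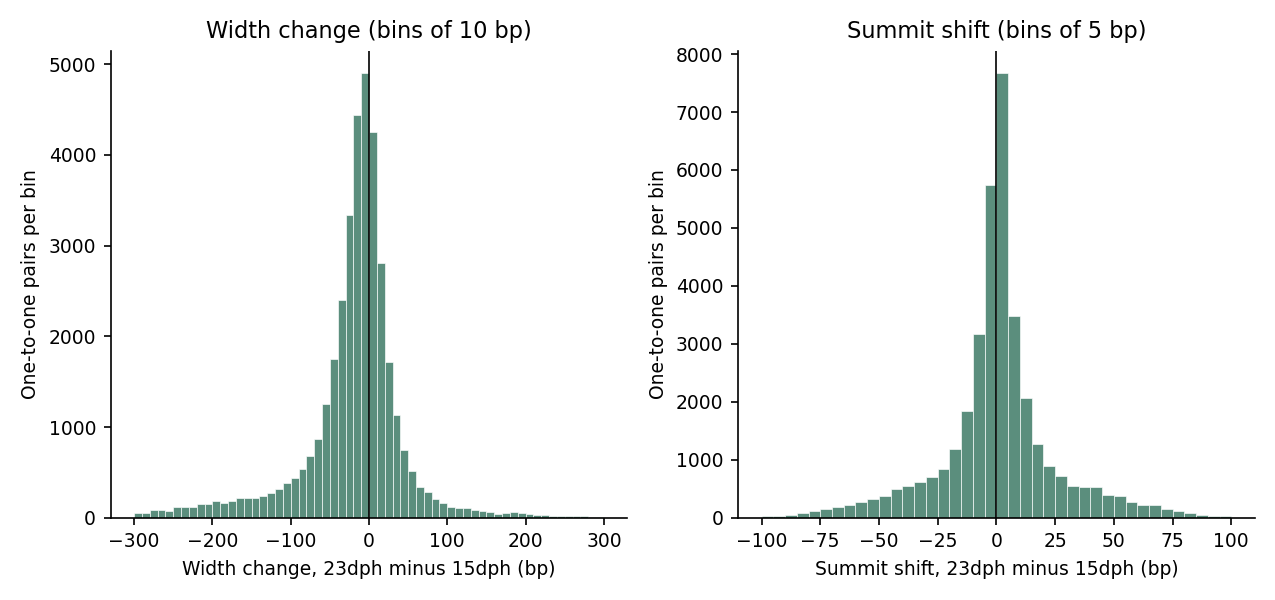
Numbers of one-to-one pairs by change in width (left, bins of 10 bp) and by shift of the summit (right, bins of 5 bp), each as 23dph minus 15dph in bp; 730 width changes and 1272 summit shifts lie outside the plotted ranges. The width changes lean below 0, with a median of −12 bp, and the summit shifts are even around 0.

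Narrowing was more frequent among sites of larger mean width, while by strength the order depended on the stage. By strength at 15dph, 73.5% of pairs were narrower at 23dph in decile 1 and 48.0% in decile 10. By strength at 23dph the share was 71.1% in decile 1, 62.0% in decile 5 and 69.7% in decile 10. The order along the deciles therefore depended on which stage ranked the peaks, while decile 1 was high in both. By the mean of both widths, which favours neither stage, the share narrower was 53.5% at 100 to 149 bp (median change −3 bp) and 71.3% at 700 bp or more (median change −44 bp). By this mean the change was thus largest in bp at the wide sites. By width at 15dph the share narrower was 21.0% at 100 to 149 bp and 86.7% at 700 bp or more. By width at 23dph it ran the other way, with 84.0% and 51.1%.

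The change in width also followed the change in rank. Where a site ranked lower at 23dph by over 10 percentage points of its list, 73.9% of 12840 pairs were narrower, with a median change of −20 bp. Where it ranked higher by over 10 points, 42.9% of 4599 pairs were narrower, with a median change of 5 bp. Among the 20471 pairs whose ranks lay within 10 points, 64.5% were narrower, with a median change of −11 bp. The narrowing was therefore nearly as large at sites whose rank percentile held. A percentile depends on the length of its list, and over all pairs it moved by a median of 3.89 points towards the weaker end at 23dph. The sizes of these groups are therefore not read as numbers of sites that became weaker or stronger. On single chromosomes the share narrower ran between 60.9% (chromosome 6) and 67.4% (chromosome 13), and the median change between −14 bp (chromosome 4) and −9 bp (chromosome 6).

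The largest changes of single sites ran in both directions. The largest widening lay on chromosome 7, where the 23dph peak covered 1054 bp (7907548 to 7908601) and the 15dph peak 400 bp (7907574 to 7907973), a change of 654 bp with summits 1 bp apart. Its ranks, 339 at 23dph and 387 at 15dph, put it among the strongest sites of both lists. Next came chromosome 10 from 22734476 to 22735397, with 922 bp at 23dph and 324 bp at 15dph, and chromosome 14 from 6881073 to 6882004, with 932 bp at 23dph and 457 bp at 15dph. The largest narrowing, of −1066 bp, lay on chromosome 8, where the 23dph peak ran from 20590178 to 20590487 (310 bp) and the 15dph peak from 20589107 to 20590482 (1376 bp). Chromosome 11 held the following pair of narrowings, with 236 bp at 23dph and 1108 bp at 15dph from 8895764 to 8896871, and with 269 bp at 23dph and 1134 bp at 15dph from 7106569 to 7107702. In the stronger of these, ranked 1453 at 23dph and 806 at 15dph, the summit moved by 1 bp and nearly all of the narrowing was on one side.

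Pairs whose summits lay far apart were mostly made of wide peaks. In the 1268 pairs with summits over 100 bp apart, the median width was 424 bp at 23dph and 474 bp at 15dph, against 236 bp and 254 bp in the other 36642. Narrow peaks that overlap leave little room for such a distance, so the link rule itself set part of this difference. The largest shift to lower coordinates, −861 bp, was on chromosome 11, inside nearly equal peaks, which covered 9225435 to 9226587 (1153 bp) at 23dph and 9225424 to 9226648 (1225 bp) at 15dph. The largest shift to higher coordinates, 612 bp, was on chromosome 5, between peaks that covered 21384188 to 21384599 (412 bp) at 23dph and 21383753 to 21384321 (569 bp) at 15dph. On chromosome 11 the site kept its extent while the highest point moved to its other end. On chromosome 5 the peaks overlapped only in part, and neither summit lay inside the other peak. Over all one-to-one pairs, 179 had at least 1 summit outside the partner peak.

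Fewer peaks merged than broke up. Of the kept 23dph peaks, 349 overlapped at least 2 peaks of 15dph (0.866% of 40283), and 5 of them overlapped 3. Of the kept 15dph peaks, 1019 overlapped at least 2 peaks of 23dph (2.57% of 39582), and 36 of them overlapped 3. Split peaks were wide, with a median of 621 bp, and their 23dph parts had a median of 250 bp with 52 bp between them. Among kept peaks of at least 700 bp, 12.4% of those at 23dph (73 of 590) joined several 15dph peaks and 27.4% of those at 15dph (367 of 1340) were split. In the strongest 50% of each list 77 peaks joined others and 302 were split, at a global IDR of at most 0.01 the counts were 175 and 556, and with lists of equal length 200 and 997. The summit of the wide peak lay in its strongest part in 84.0% of joins and in 85.7% of splits.

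An example of a join lay on chromosome 10, where a 23dph peak of 979 bp from 5560125 to 5561103 faced 15dph peaks of 547, 328 and 725 bp. The 15dph peak of 725 bp, from 5561056 to 5561780, reached past that 23dph peak and overlapped another one, so it also counted as split. Over both lists, 50 links were between a split and a joining peak. An example of a split lay on chromosome 1, where 23dph peaks of 170, 259 and 228 bp faced a 15dph peak of 844 bp from 10484301 to 10485144. Splitting and joining thus moved the lists the same way as the one-to-one pairs, towards narrower peaks at 23dph.

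The lists of 3dpf and 37dph had no part in these classes and give a second reading of them. Of the gained peaks, 47.9% overlapped a 3dpf peak, 24.4% a 37dph peak, 12.9% both and 40.6% (3073) neither, and of the kept 23dph peaks 89.6% overlapped a 3dpf peak and 78.5% a 37dph peak. Of the lost peaks, 59.6% overlapped a 3dpf peak, 25.2% (4551) a 37dph peak, 16.2% both and 31.3% (5649) neither. Kept 15dph peaks overlapped a 3dpf peak in 89.6% of cases and a 37dph peak in 78.8%. Gained and lost sites thus both carried a peak after metamorphosis less often than kept sites. Which of them did so more often turned on the link rule, since a 37dph peak was found for 31.5% of gained and 23.3% of lost peaks where the overlap had to reach 50% of each peak, and for 26.2% and 24.1% with summits within 100 bp. The 3dpf list is the longest of the series, at 94714 peaks against 46248 at 37dph. Every class overlapped it more often than the 37dph list, and the part of list length in this was not tested.

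The gap to kept peaks remained within strength deciles. In the deciles with at least 20 gained peaks, the share of gained peaks with a 37dph peak was below that of kept peaks in 7 of 7, with a median difference of −29.0 points, and the share with a 3dpf peak in 7 of 7, with a median difference of −26.8 points. Lost peaks lay below kept peaks in 9 of 9 deciles for 37dph, with a median difference of −29.8 points, and in 8 of 9 for 3dpf (the exception was decile 2, with 21 lost peaks), with a median difference of −10.1 points. Lost peaks were therefore closer to kept peaks in their overlap with the early stage than in that with the late stage.

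Sites also differed in width by the stages that shared them, in all classes. Lost peaks at sites with a 37dph peak had a median width of 195 bp, against 263 bp at sites shared with 3dpf alone. Gained peaks shared with 37dph had a median of 205 bp, against 228 bp for those shared with 3dpf alone. Kept peaks had the same order, with 238 bp against 255 bp at 23dph and 257 bp against 284 bp at 15dph. Sites with a one-to-one pair and peaks at both 3dpf and 37dph (27543) were narrower at 23dph in 66.4% of cases with a median summit shift of 8 bp, and those with a peak at neither (1718) in 58.6% with a median shift of 19 bp. These sites also differed in strength. The median rank of kept 15dph peaks lay 26.3% down the list with peaks at both and 72.8% down with a peak at neither. The pairs were not compared within strength deciles here.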

How the data were processed

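ATAC-seq peak lists of turbot were analysed, 1 for each of 4 stages with 2 replicates each (8 samples), of which the 23dph and 15dph lists (4 samples) were compared and the 3dpf and 37dph lists were read only for overlaps. According to the study's methods, the authors aligned paired reads with Bowtie2 to the assembly ASM1334776v1, placed read starts at the position of the Tn5 cut, restricted the reads to short nucleosome-free fragments, ran MACS2 for peak calling per replicate and used IDR to join both replicates of a stage. The submitters' processing notes name bedtools and MACS2. The deposited lists hold start, end and summit of each peak and, as the authors' caller and IDR wrote them, a fold enrichment (a ratio to the local background), the −log10 of p and of the global IDR, and a capped IDR score, which was not used. The other columns were not used here. The largest global IDR was 0.1. The values depend on each list's own libraries, so strength was compared only as a rank by −log10 p within a list. The lists give no read depth. No column of per-sample values was left unused (0).

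Peaks overlapping by at least 1 bp were linked, and the lists held 0 overlapping peaks of their own. Width is end minus start, and coordinates are given 1-based as in the build of the lists. A decile share is the mean, over the peaks of a set, of the gained or lost share of each peak's strength decile. Regions were named by a rule: the 3 strongest and 3 widest gained and lost peaks, the longest runs, the 3 largest widenings and narrowings, the largest summit shift each way, the peak split or joined most (the first along the genome among ties), and the chromosomes with the highest and lowest shares. No test was made, because each stage has 1 list. The link code was tested on simulated dense lists, where 20 of 20 checks, each of 1 link rule on 1 pair of lists, gave the links of a search over all pairs. The alternatives were the strongest 50% of each list, equal list lengths, a global IDR of at most 0.01, numbered chromosomes only, other link rules, and comparison within strength deciles. The members, lists and rules were chosen with earlier results of these data known. Genes and sequences were not analysed here, since the gene table at hand belongs to another assembly. The scripts ran under Python 3.11.15 with pandas 2.3.3, numpy 2.4.6, matplotlib 3.10.9 and scipy 1.17.1.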

Additional observations from a re-analysis of the deposited data

How the results depend on the processing

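The gained share (15.8%) and the lost share (31.3%) moved with the lists compared: 9.32% and 25.5% in the strongest 50% of each list, 20.3% and 22.1% with equal list lengths, 9.07% and 27.9% at a global IDR of at most 0.01, and 1.38% and 5.67% when only the list examined was cut to its strongest 50%. They also moved with the link rule, to 21.7% and 34.9% where the overlap had to reach 50% of each peak, 20.6% and 34.1% with summits within 100 bp, and 14.0% and 27.6% with peaks up to 250 bp apart linked too. The width difference to kept peaks (−21 bp for both classes) turned round within strength deciles, to 7.75 bp for gained and 21 bp for lost peaks. It was −32 and −30 bp in the strongest 50%, −2 and −8 bp with summits within 100 bp, and for lost peaks −16 bp with equal lengths and −7 bp with an overlap of 50%. The neighbour difference of gained peaks (5.10 points) was 0.521 in the strongest 50%, 1.39 at the stricter IDR, 3.23 with summits within 100 bp, 8.44 for neighbours within 5 kb and 6.70 within 10 kb. That of lost peaks (7.93 points) was 2.45 in the strongest 50%, 4.68 with equal lengths, 3.94 at the stricter IDR and 6.28 with an overlap of 50%. The share of pairs narrower at 23dph (65.1%) was 67.9% in the strongest 50%, 65.8% with equal lengths, 66.4% at the stricter IDR, 64.6% with an overlap of 50% and 64.5% for ranks within 10 points, and the median change (−12 bp) was −14 bp in the strongest 50%. The remaining 25 values of these 8 results moved by less than their counting error. For other single results, 90 values moved by more than their counting error (counts by more than 1.5 times) and 46 stayed within it. The causes of these moves were not tested. Decile shares, pairs of like rank, 1-Mb windows, chromosome ends, neighbours within 10 kb and gaps by strength were added after the data were seen. No paired analysis was possible because each stage has 1 list for both of its replicates, and for the same reason no replicate could be left out. The gene annotation and its promoter windows were not run.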

Other observations

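Along the chromosomes, windows of 1 Mb differed in the lost share more than in the gained share. Of 555 windows, 520 held at least 50 peaks at 15dph, and of these 516 had fewer peaks at 23dph, 2 had more and 2 had the same number. The gained share of a window had a median of 15.8% (10.9 to 21.7% between the lowest and the highest 10%) and an SD over windows of 4.40 points, where counting error alone would give 4.02 points. The lost share had a median of 31.2% (22.6 to 41.9%) and an SD of 7.37 points, where counting error alone would give 4.56 points. The highest gained share was that of the window from 24 to 25 Mb of chromosome 1, with 27 of 76 peaks gained (35.5%), where 42 of 91 peaks were also lost (46.2%). The highest lost share was that from 5 to 6 Mb of chromosome 14, with 39 of 70 peaks lost (55.7%), and the lowest that from 20 to 21 Mb of chromosome 19, with 17 of 131 (13.0%). These windows were picked for their values.

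The lost share was lower near the chromosome ends, and so was the decile share of the peaks there. Within 100 kb of an end, 38 of 293 peaks at 23dph were gained (13.0%, interval 9.60 to 17.3%) and 69 of 321 peaks at 15dph were lost (21.5%, interval 17.4 to 26.3%). The strength deciles gave 12.2% and 23.5%, each inside its interval. Between 1 and 5 Mb from an end, 16.7% were gained and 33.7% were lost, and beyond 5 Mb, where most peaks lie, 15.5% were gained and 30.6% were lost. The ends were taken from the first base and the furthest peak. On sequences other than the numbered chromosomes, 8 of 14 peaks at 23dph were gained and 7 of 13 peaks at 15dph were lost.

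Across the 22 chromosomes the gained and the lost share went together as a description (Pearson 0.577, Spearman 0.471), and the points share the same lists and links. Across the 37910 one-to-one pairs, which are not independent, widths at 23dph and at 15dph had a Spearman correlation of 0.835 and ranks by −log10 p one of 0.843. Of these pairs, 32.4% lay in the same strength decile at both stages and 15.1% lay 3 or more deciles apart.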
